A study of Homo sapiens with 6 samples.

Results

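DEV is a cell line derived from nodular lymphocyte predominant Hodgkin lymphoma (NLPHL), a B cell lymphoma whose tumor cells lie among many T cells and histiocytes. The genes described here are 10 that govern the G1 phase of the cell cycle, namely the cyclin-dependent kinases CDK2, CDK4 and CDK6, the cyclins CCND2, CCND3, CCNE1 and CCNE2, the kinase inhibitors CDKN1A and CDKN1B, and RB1. They were chosen by gene symbol in the platform annotation, and all 10 were measured, each by 1 probe set (a set of probes to the exons of a gene) among the 32321 of the array. The table holds 19158 probe sets with 1 symbol. The 3 culture conditions, with 2 arrays each, were DEV cells kept alone (monoculture), coculture with T cells (CD3-positive), and coculture with monocytes (CD14-positive), the blood cells coming from healthy donors and outnumbering the tumor cells 10 to 1. The tumor cells were taken at day 5, and those from cocultures were freed of blood cells with magnetic beads against CD4, CD8 and CD14. All samples stem from this 1 cell line, the labels name no genetic change, and the replicates were chosen by the study as typical of a number of experiments. Whether the blood cells of the replicates came from separate donors is not stated, so that p-values measure the spread between these arrays, which may be technical. In these bulk samples a lower level cannot be told apart from fewer cells that use the gene.

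In G1, D-type cyclins with CDK4 or CDK6, and later cyclin E with CDK2, phosphorylate RB1 and its relatives, which releases E2F transcription factors and lets the cell copy its DNA. CDKN1A (p21) and CDKN1B (p27) bind these complexes and restrain CDK2. Germinal centre B cells, from which this lymphoma derives, divide quickly and rely on cyclin D3 more than on cyclin D1.

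Both inhibitors and CDK2 lay higher in all 4 coculture arrays than in both monoculture arrays, while CCND3, CCNE2, CDK6 and CDK4 lay lower in all 4. Over both cocultures, the log2 difference from monoculture was 1.35 ± 0.25 (standard error of the fit) for CDK2, 0.99 ± 0.15 for CDKN1A and 0.50 ± 0.090 for CDKN1B, against -1.06 ± 0.24 for CCND3 and -0.66 ± 0.17 for CCNE2. None of the 10 genes passed the threshold of 0.05 on the adjusted p-value in limma, which called 232 probe sets (0.718%) in this comparison, 80 higher and 152 lower. That split was 90 to 112 after quantile normalization and 120 to 444 after median centring. At an unadjusted p under 0.05 there were 6 of 10 (CDKN1A, CDKN1B, CDK2, CCND3, CCNE2 and CDK6), against 18.8% of all probe sets. Arrays did not overlap for 3 of 10 in the higher direction, against 15.2% of all probe sets, and for 4 of 10 in the lower direction, against 13.8%. The median difference of the 10 genes was -0.16, beside 0.028 over all probe sets. That gap depended on the normalization. CDK4 and RB1, the middle genes of the 10, moved to 0.0029 and -0.031 after quantile normalization. The median over all probe sets was then 0.0015. CDKN1A, CDK2 and CCND3 were named in the study from these same arrays, so their direction here is not independent evidence.

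**Figure D1:**
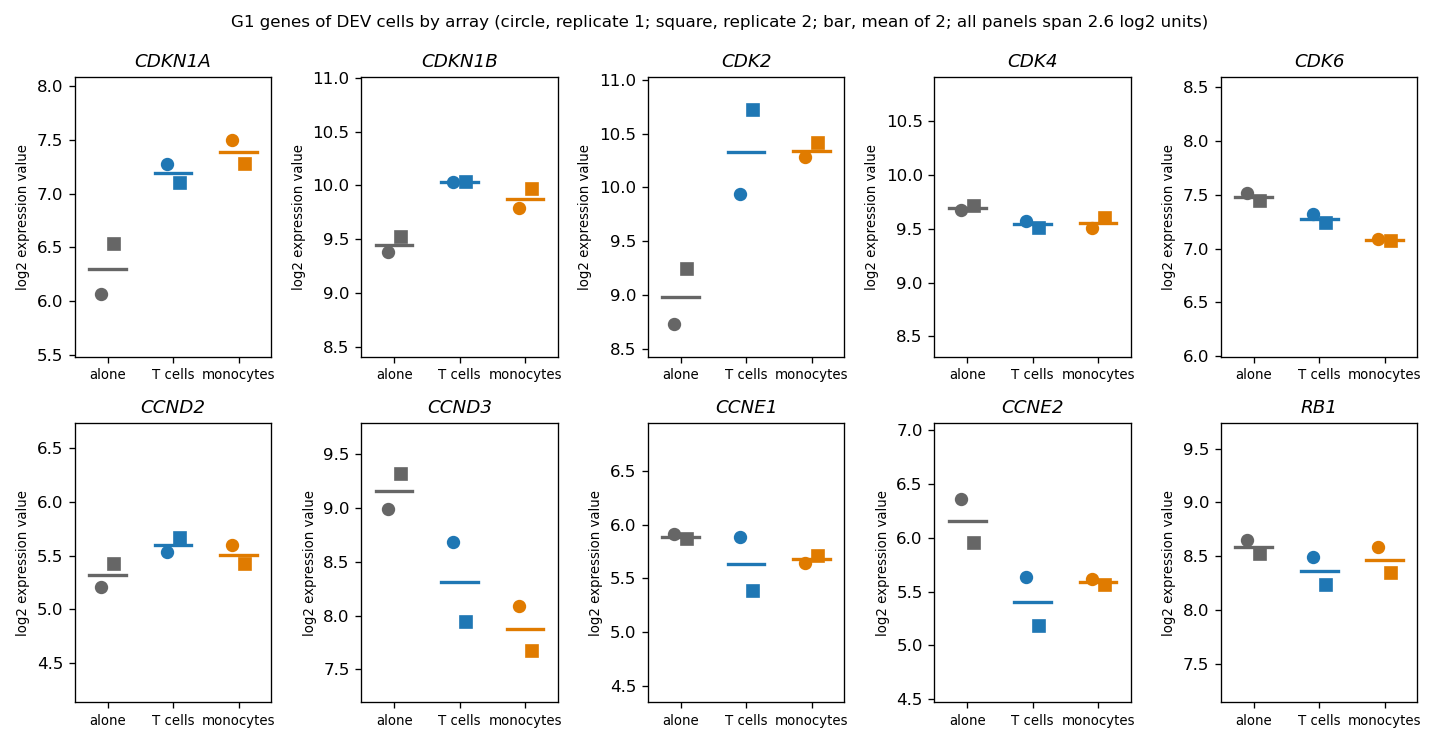
Log2 expression value (y axis) of the 10 genes in each array, for DEV cells alone (grey), with T cells (blue) and with monocytes (orange). Replicate 1 is drawn as a circle and replicate 2 as a square, and a bar marks each group mean. All panels span the same height, so that CDK2, at 8.98 alone against 10.33 and 10.34 in coculture, can be set against CDK4, which stayed between 9.51 and 9.72.

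The windows before the listed starts were searched for sequences that some of the factors named here are known to bind. Of the 10 genes, 7 had at least 1 start in the RefSeq promoter table (GRCh38.p14), with 10 windows in all, and the 250 bases before each start were searched on both strands. The E-box CACGTG, bound by MYC with MAX, was found, among the 7 genes, only in the window of CDK4, 3 times, and in 6.34% of all 35116 windows. The GC box GGGCGG, bound by SP1, was found in 7 of the 10 windows (6 of the 7 genes) and in 42.6% of all windows. The E2F motif in any of the forms TTTCCCGC, TTTCGCGC, TTTGCCGC or TTTGGCGC (2.79% of all windows) and the TATA box as TATAAA (10.7%) matched in 0 of the 10 windows. RB1 has 1 window in the table, with 36.8% G and C against 61.2 to 81.2% in the other windows, and its lack of matches describes that window, which may not be its main start. No matches of different motifs lay within 8 bases of each other in these windows. Shown are the windows of both inhibitors, which were higher in coculture, of CCND3, which was lower, by 1 of its 3 starts, and of CDK4, for its E-boxes, with E-boxes and GC boxes of either strand in capitals:
CDKN1A, GRCh38.p14, chr6:36678464-36678713, plus strand: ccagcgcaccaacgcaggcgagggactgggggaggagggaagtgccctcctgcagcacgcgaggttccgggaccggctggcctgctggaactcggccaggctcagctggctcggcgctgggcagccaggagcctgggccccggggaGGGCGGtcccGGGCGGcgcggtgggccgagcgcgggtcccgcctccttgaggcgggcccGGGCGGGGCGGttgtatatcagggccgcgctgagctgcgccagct
CDKN1B, GRCh38.p14, chr12:12717118-12717367, plus strand: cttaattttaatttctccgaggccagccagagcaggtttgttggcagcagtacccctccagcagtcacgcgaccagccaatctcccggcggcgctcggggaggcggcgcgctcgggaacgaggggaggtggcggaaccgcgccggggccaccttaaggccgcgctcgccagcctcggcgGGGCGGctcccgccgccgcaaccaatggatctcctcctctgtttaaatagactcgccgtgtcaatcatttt
CCND3, GRCh38.p14, chr6:41941809-41942058, minus strand: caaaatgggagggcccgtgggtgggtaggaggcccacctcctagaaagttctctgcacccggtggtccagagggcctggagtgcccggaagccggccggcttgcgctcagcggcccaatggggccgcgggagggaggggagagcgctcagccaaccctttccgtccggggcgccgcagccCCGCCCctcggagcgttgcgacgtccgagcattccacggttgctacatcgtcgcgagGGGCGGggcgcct
CDK4, GRCh38.p14, chr12:57752311-57752560, minus strand: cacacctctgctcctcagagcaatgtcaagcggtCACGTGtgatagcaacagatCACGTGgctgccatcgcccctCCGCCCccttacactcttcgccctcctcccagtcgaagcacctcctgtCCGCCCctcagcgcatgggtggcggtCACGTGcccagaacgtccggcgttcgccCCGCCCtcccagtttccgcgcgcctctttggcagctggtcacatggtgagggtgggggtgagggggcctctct
In this CCND3 window the 2 capital stretches are GC boxes, and CDKN1A has 4 of them, of which the last pair share a base. The matches describe the letters only and say nothing of binding in these cells.

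Because 1 array stood apart in a marker of another cell type, markers of the cells in the cultures are given before the single genes. All 7 measured B cell markers lay above the array median on each array, but their levels differed in both directions and 0 were called by limma. Over both cocultures PAX5, a factor of B cell identity, was at -1.86 ± 0.50 (limma adjusted p = 0.122), a larger difference than that of any of the 10 G1 genes, and BLK at -0.25 ± 0.079 (adjusted p = 0.160), both lower in all 4 arrays. CD22, at 0.70 ± 0.13 (adjusted p = 0.0664), and MS4A1 (CD20), at 0.57 ± 0.091 (adjusted p = 0.0545), were higher in all 4. Of 12 T cell markers, 3 or 4 lay above it in each array, with summed linear signals of 833 and 863 in monoculture, 852 and 845 with T cells, and 713 and 703 with monocytes. CD3D made up the largest single part of these sums. With T cells, 9 of the 12 markers had higher means than in monoculture. Without overlap, 5 were higher and 2 lower, none of them called, where 46.6% of all probe sets were without overlap, higher or lower. The higher ones included IL7R at 0.48 ± 0.14 (limma adjusted p = 0.195), CD3E at 0.29 ± 0.15 (adjusted p = 0.435) and ZAP70 at 0.25 ± 0.090 (adjusted p = 0.274). The lower ones were CD3D at -0.20 ± 0.090 (limma adjusted p = 0.37) and CD3G at -0.18 ± 0.12 (adjusted p = 0.55). CD3E stayed between 4.98 and 5.50 in all arrays, while CD3D was bright in monoculture too (8.26 and 8.33) and, at 7.55 and 7.47, fell by 0.79 on the log2 scale with monocytes (limma adjusted p = 0.0455), the 1 call among all markers. The 12 monocyte markers summed to 787 and 992 in monoculture, 839 and 745 with T cells, and 1179 and 720 with monocytes, and 8 of them lay above the array median in monocyte replicate 1 against 4 or 5 in the other arrays. MNDA, bright in monoculture too (8.27 and 8.93), was the brightest of the 12 in each array but monocyte replicate 1. In monocyte replicate 1, LYZ, the lysozyme of monocytes, stood at 8.42 against 4.98 to 5.09 in the other 5 arrays, and CD14 stood at 6.15 against 5.21 to 5.42. FCER1G stood at 6.24 there, against 4.91 to 5.17 in the other arrays. Without that array the monocyte difference of CDKN1A was 0.98, of CDK2 1.42, of CDKN1B 0.51, of CCND3 -1.48 and of CDK6 -0.41, beside 1.09, 1.36, 0.43, -1.28 and -0.40 with it. The part of the marker signals in the other differences was not tested.

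The inhibitors come first. CDKN1A encodes p21, which arrests cells in G1. Its log2 value was 6.07 and 6.53 in monoculture, 7.28 and 7.10 with T cells, and 7.50 and 7.28 with monocytes. The lowest coculture array thus lay above the higher monoculture array. The group means were 6.30 ± 0.33 (SD, n = 2), 7.19 ± 0.12 and 7.39 ± 0.16. Over both cocultures this was a difference of 0.99 ± 0.15, or 1.98-fold (95% interval 0.62 to 1.36 on the log2 scale, limma adjusted p = 0.0531). The difference was larger in size than that of 99.0% of all probe sets, and by p it ranked at 373. The T cell difference was 0.89 ± 0.18 (adjusted p = 0.127) and the monocyte difference 1.09 ± 0.18 (adjusted p = 0.0569). Among the 10 genes, p21 with monocytes had the smallest adjusted p for a single coculture.

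CDKN1B encodes p27, the inhibitor that holds resting lymphocytes in quiescence. It was one of the brighter probe sets, with 9.38 and 9.52 in monoculture, 10.03 in both T cell arrays, and 9.79 and 9.96 with monocytes. Both T cell arrays lay above both monocyte arrays, and all 4 lay above monoculture. The difference between the cocultures was -0.15 ± 0.10 (monocytes minus T cells, limma adjusted p = 0.83). Of all probe sets, 34.7% were without overlap between the cocultures, higher or lower. The difference over both cocultures was 0.50 ± 0.090, 1.42-fold (95% interval 0.28 to 0.72, limma adjusted p = 0.0614). With T cells it was 0.58 ± 0.10 (adjusted p = 0.119) and with monocytes 0.43 ± 0.10 (adjusted p = 0.111). The p27 difference ran from 0.44 to 0.57 when each array was left out in turn. After quantile normalization it was 0.66 ± 0.080 and passed (limma adjusted p = 0.0482).

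Among the kinases, CDK2 stood out. CDK2 pairs with cyclin E at the entry into S phase, and it lay higher in coculture, as did both inhibitors that bind it. Its log2 value was 8.73 and 9.24 in monoculture, 9.94 and 10.72 with T cells, and 10.28 and 10.41 with monocytes. The T cell arrays were far apart, with replicate 1 nearer to monoculture. Over both cocultures CDK2 lay 1.35 ± 0.25 higher, or 2.55-fold (95% interval 0.75 to 1.95, limma adjusted p = 0.0634), a larger difference than that of 99.7% of probe sets. The T cell and monocyte differences were 1.34 ± 0.28 (adjusted p = 0.133) and 1.36 ± 0.28 (adjusted p = 0.0871).

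CDK4 and CDK6, the partners of the D-type cyclins, differed much less. CDK4 stood at 9.68 and 9.72 in monoculture, 9.57 and 9.51 with T cells, and 9.51 and 9.61 with monocytes, which is lower in each coculture array but by little. The difference was -0.15 ± 0.078 (95% interval -0.34 to 0.042, limma adjusted p = 0.382), and its sign was not stable, since quantile normalization gave 0.0029. CDK6 stood at 7.52 and 7.44 in monoculture, 7.32 and 7.24 with T cells, and 7.09 and 7.07 with monocytes. Its 3 groups did not overlap and lay in that order. The difference was -0.30 ± 0.078 over both cocultures (limma adjusted p = 0.113), -0.20 ± 0.089 with T cells (adjusted p = 0.363) and -0.40 ± 0.089 with monocytes (adjusted p = 0.0966). Between the cocultures CDK6 differed by -0.20 ± 0.089 (monocytes minus T cells, 95% interval -0.42 to 0.019, limma adjusted p = 0.694), where 34.7% of all probe sets were without overlap.

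CCND3, the main D-type cyclin of germinal centre B cells, was the gene with the largest negative difference. It stood at 8.996 and 9.32 in monoculture, 8.68 and 7.94 with T cells, and 8.09 and 7.67 with monocytes. The highest coculture array, T cell replicate 1, still lay below both monoculture arrays. The difference was -1.06 ± 0.24, so that monoculture was 2.08-fold higher (95% interval -1.64 to -0.48, limma adjusted p = 0.0880). It was -0.84 ± 0.27 with T cells (adjusted p = 0.237), but -0.47 without T cell replicate 2, and -1.28 ± 0.27 with monocytes (adjusted p = 0.0906). The other D-type cyclin among the 10 genes, CCND2, was dim. Its values of 5.21 and 5.42 in monoculture, 5.53 and 5.66 with T cells, and 5.60 and 5.42 with monocytes lay below the median of all probe sets on each of the 6 arrays. Its difference of 0.24 ± 0.10 over both cocultures had overlapping arrays (95% interval -0.019 to 0.49, limma adjusted p = 0.301) and was 0.13 without monoculture replicate 1, and a lack of CCND2 transcript cannot be told apart from a weak one here.

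The E-type cyclins activate CDK2. CCNE2 stood at 6.36 and 5.95 in monoculture, 5.64 and 5.18 with T cells, and 5.62 and 5.56 with monocytes, and it exceeded the array median only in the monoculture arrays. Its difference was -0.66 ± 0.17 over both cocultures (monoculture 1.58-fold higher, 95% interval -1.07 to -0.25, limma adjusted p = 0.112), -0.75 ± 0.19 with T cells (adjusted p = 0.170) and -0.57 ± 0.19 with monocytes (adjusted p = 0.209). CCNE1 stood at 5.91 and 5.87 in monoculture, 5.89 and 5.39 with T cells, and 5.65 and 5.71 with monocytes, near the median of the arrays. T cell replicate 1 lay within the monoculture range. The CCNE1 difference was -0.23 ± 0.14 (95% interval -0.58 to 0.12, limma adjusted p = 0.473). Without T cell replicate 2 it was -0.10, and -0.36 without T cell replicate 1. With T cells alone it went from -0.25 to -0.0018 without replicate 2 and to -0.50 without replicate 1.

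RB1 encodes the pocket protein that these kinases inactivate. It stood at 8.65 and 8.52 in monoculture, 8.50 and 8.23 with T cells, and 8.58 and 8.34 with monocytes, with overlapping arrays for monocytes. The difference was -0.18 ± 0.12 over both cocultures (95% interval -0.46 to 0.11, limma adjusted p = 0.510), and it was -0.11 without monoculture replicate 1 or T cell replicate 2 and -0.12 without monocyte replicate 2. With monocytes it was -0.12 ± 0.14 (adjusted p = 0.726), and quantile normalization turned it to 0.054.

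**Figure D2:**
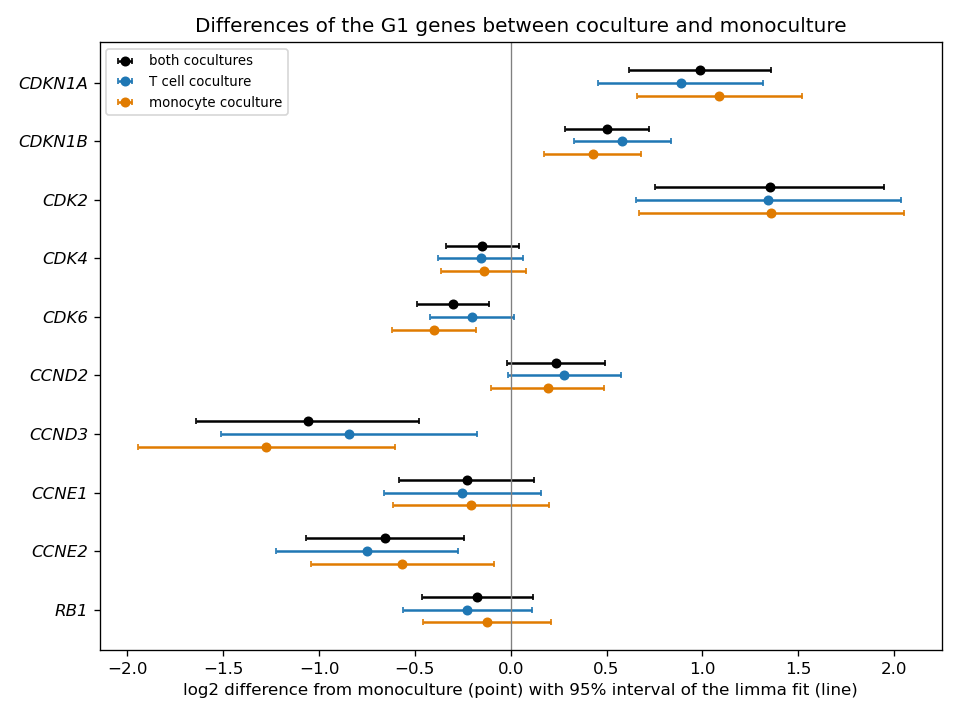
Log2 difference from monoculture (x axis) of each gene for both cocultures (black), T cells (blue) and monocytes (orange), with points for the estimate and lines for its 95% interval in the limma fit, unadjusted for the number of genes. Over both cocultures the intervals of CDKN1A, CDKN1B and CDK2 lie above 0, those of CCND3, CCNE2 and CDK6 below 0, and those of CDK4, CCND2, CCNE1 and RB1 include it.

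The T cell and monocyte comparisons share the monoculture arrays, so each is given by its own values. With T cells, limma called 0 of the 10 genes and 0% of all probe sets, 5 of 10 had an unadjusted p under 0.05 (15.4% of all probe sets), and 9 of 10 had arrays that did not overlap with monoculture (46.6%). With monocytes, limma called 0 of 10 genes beside 0.579% of all probe sets (74 higher and 113 lower, 68 and 60 after quantile normalization, 107 and 333 after median centring), 6 of 10 had an unadjusted p under 0.05 (17.5%), and 8 of 10 did not overlap (50.2%). Set directly against each other, the cocultures gave 0 calls by limma among the 10 genes and 0% among all probe sets, with 0 of 10 at an unadjusted p under 0.05 (7.49% of all probe sets) and 3 of 10 without overlap (34.7%), namely CDKN1A, CDKN1B and CDK6. The widest of these differences was that of CCND3, at -0.43 ± 0.27 (monocytes minus T cells, 95% interval -1.10 to 0.24, limma adjusted p = 0.812). For CDKN1A it was 0.20 ± 0.18 (95% interval -0.23 to 0.63) and for CDK2 0.017 ± 0.28 (95% interval -0.67 to 0.71).

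Single arrays weighed heavily on the calls. T cell replicate 1 was nearer to the monoculture mean than T cell replicate 2 in 8 of the 10 genes and in 63.8% of all probe sets, the exceptions being CDKN1A and CDKN1B. Without it, limma called 4 of the 10 genes over both cocultures: CDK2 at 1.55 (adjusted p = 0.0158), CCND3 at -1.25 (adjusted p = 0.0225), CDKN1A at 0.94 (adjusted p = 0.0385) and CCNE2 at -0.77 (adjusted p = 0.0419), among 2329 called probe sets. Without the first array of both cocultures, an alternative chosen after seeing the data, CDK2 (1.58) and CCND3 (-1.35) were called among 2545 probe sets. Without T cell replicate 2, limma called 0 of the 10 genes and 281 probe sets. Without either monoculture array or either monocyte array, limma called 0 probe sets, with 3739 to 5715 at an unadjusted p under 0.05, and CDKN1A ran from 0.76 to 1.22, CDK2 from 1.10 to 1.61, CCND3 from -1.22 to -0.90 and CCNE2 from -0.86 to -0.45. The differences of all 10 genes over both cocultures kept their sign whichever array was left out.

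**Figure D3:**
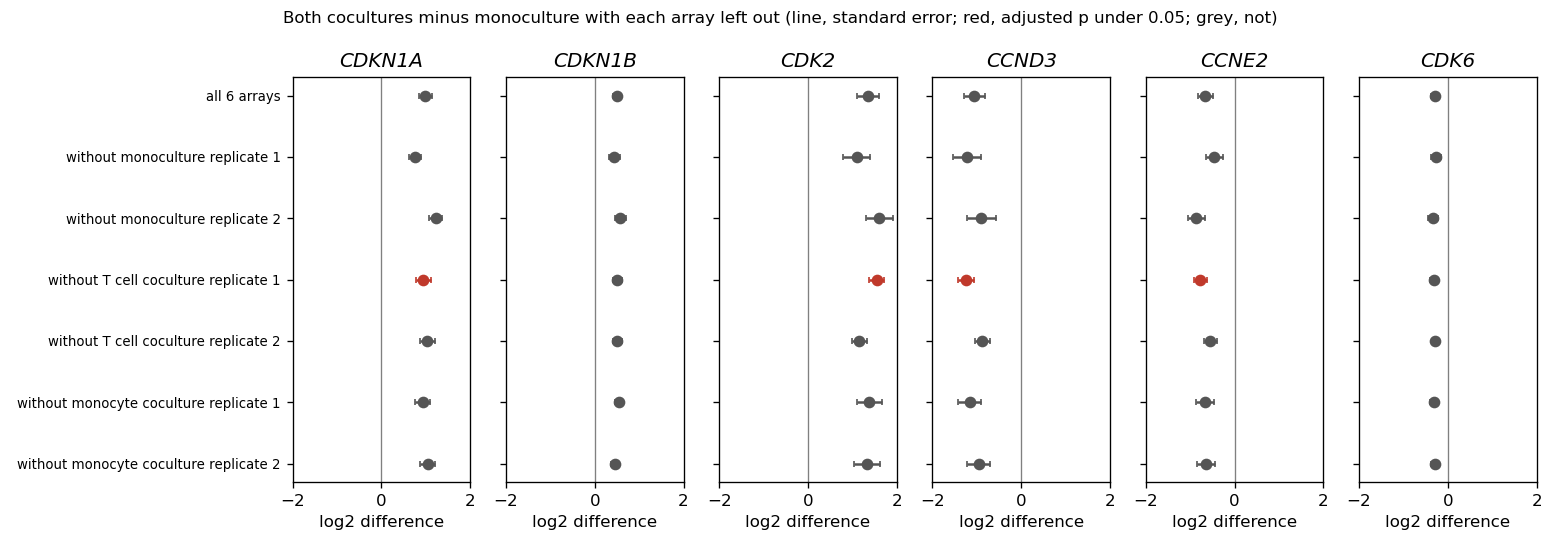
Log2 difference over both cocultures minus monoculture (x axis) of 6 genes, with all 6 arrays and with each array left out in turn; points are estimates, lines standard errors, and red marks an adjusted p under 0.05. Red points stand only in the line without T cell replicate 1, for CDKN1A (0.94), CDK2 (1.55), CCND3 (-1.25) and CCNE2 (-0.77).

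The rest of the G1-S pathway was taken from lists of related genes. Of CCND1, CDK3 and the other INK4 and KIP inhibitors, 5 of 7 were measured, and limma called 0 of them over both cocultures. Their differences ran from -0.14 to 0.20, with CDKN1C (p57) at 0.20 ± 0.088, CDKN2A (p16) at 0.13 ± 0.094 and CCND1 at -0.14 ± 0.10, against 0.99 for CDKN1A. Of 12 pocket protein, E2F and DP genes, limma called 0, with 8 lower and 4 higher means and a median of -0.23. Those with the smallest p were TFDP1, the dimerisation partner of E2F, at -0.87 ± 0.20 (limma adjusted p = 0.0969), the repressive E2F4 at -0.41 ± 0.10 (adjusted p = 0.107) and RBL1 (p107), itself an E2F target, at -0.71 ± 0.20 (adjusted p = 0.135), each lower in all 4 coculture arrays.

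Genes that activate CDKs or degrade cyclin E and p27 also lay mostly lower. Of 10 measured, limma called 0, and 8 had lower means (median -0.17). Without overlap, 5 were lower and 1 higher, against 13.8% and 15.2% of all probe sets. Of the genes that activate CDKs, CDK7, CCNH and MNAT1 differed little, at -0.18, -0.15 and -0.018. CUL1, the scaffold of the ubiquitin ligase, which the study had named from these arrays, was at -0.94 ± 0.21 (limma adjusted p = 0.0898), and SKP2, the subunit that marks p27 for degradation, at -0.70 ± 0.19 (adjusted p = 0.124), both lower in all 4 coculture arrays. CKS1B, the cofactor of SKP2 in that step, lay the other way, at 0.49 ± 0.12 (limma adjusted p = 0.0985). It went from 9.61 and 9.59 in monoculture to 10.15 and 10.42 with T cells and 10.04 and 9.77 with monocytes. CKS2 also had a higher mean, at 0.28 ± 0.12 with overlapping arrays. Its difference was 0.65 with T cells and -0.092 with monocytes.

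E2F target genes of the G1-S transition had lower means in 12 of 13 measured genes over both cocultures, with a median of -0.26 and 0 called by limma. Among the 12 were small differences, such as CDT1 at -0.014 and TK1 at -0.027. Without overlap, 4 of 13 were lower and 0 higher, against 13.8% and 15.2% of all probe sets. POLA1, a DNA polymerase subunit also named in the study, was at -1.11 ± 0.19 (limma adjusted p = 0.0579), CDC6, which loads the replicative helicase, at -0.87 ± 0.19 (adjusted p = 0.0825) and MCM5, part of that helicase, at -0.90 ± 0.24 (adjusted p = 0.117). The list was lower in 8 of 13 genes with T cells (median -0.080) and in 13 of 13 with monocytes (median -0.44). Without overlap, 4 were higher and 4 lower with T cells, where 46.6% of all probe sets were without overlap. With monocytes 0 were higher and 9 lower, where that share was 50.2%.

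Of 10 measured regulators upstream of the G1 genes, 1 was called by limma over both cocultures. STAT5A, a transcription factor that conveys cytokine signals and is known to act on D-type cyclin genes, rose by 0.92 ± 0.11 (adjusted p = 0.0439), from 7.41 and 7.51 in monoculture to 8.37 and 8.56 with T cells and 8.41 and 8.17 with monocytes. This call was lost, as was each call over both cocultures, without either monoculture array or either monocyte array. MYC, which represses CDKN1A and activates CDK4 in many cell types, stood at 10.03 and 10.12 in monoculture, 8.42 and 6.54 with T cells, and 6.71 and 6.38 with monocytes, a difference of -3.06 ± 0.48 (limma adjusted p = 0.0540). The study had named MYC from these same arrays as one of its most strongly lowered transcripts. The study also reported lower MYC by RT-PCR and Western blot in DEV cells after coculture. As with CDK2 and CCND3, MYC in T cell replicate 1 lay between monoculture and the other coculture arrays. BCL6, the master factor of the germinal centre and a repressor of CDKN1A, was at -0.61 ± 0.15 (adjusted p = 0.103). CDKN2C, CDK3 and BTG2 of these lists were not analysed here.

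**Figure D4:**
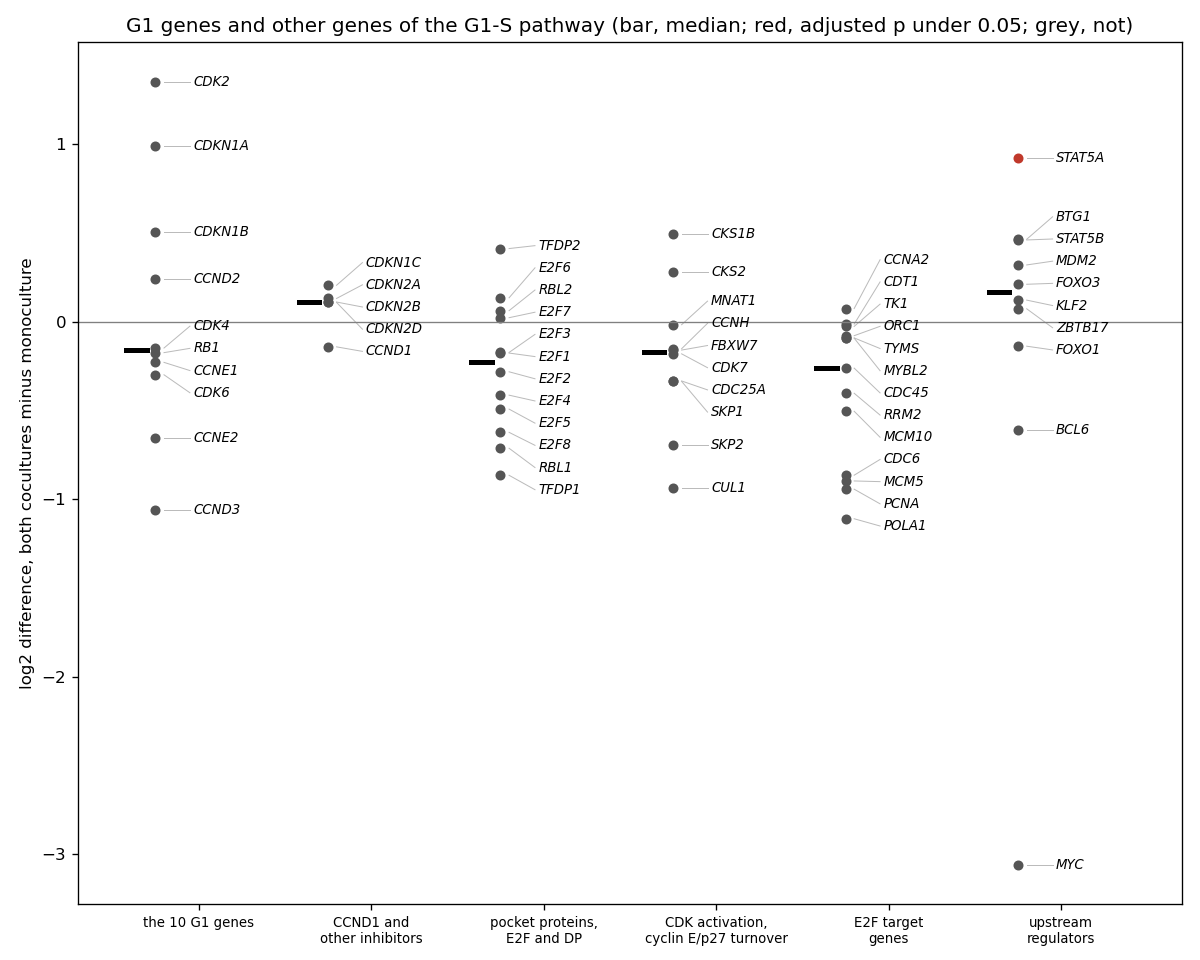
Log2 difference over both cocultures minus monoculture (y axis) of every measured gene of the 10 G1 genes and the 5 related lists, with 1 point per gene and a black bar for each median. STAT5A (0.92) is the 1 gene in red, past the threshold, while MYC (-3.06) lies lowest without passing.

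Genes with the nearest profile to the 3 most variable members were sought among 18403 others, by the root mean square difference of log2 values over the 6 arrays after each gene was centred on its own mean. For CDK2 they were GM2A (0.10), HMCES (0.12) and RGS1 (0.15), all called as higher in coculture over both cocultures. For CCND3 they were HHLA2 (0.086), LYAR (0.098) and GDAP1 (0.11), none of them called, and for CDKN1A they were ST6GAL1 (0.10), NRROS (0.12) and KANK2 (0.13), none of them called. LYAR, a nucleolar protein, stood at 7.50 and 7.73 in monoculture, 7.14 and 6.55 with T cells, and 6.74 and 6.33 with monocytes. The nearest genes were picked for likeness over the 6 arrays. That they share a direction or an order of arrays with their member therefore follows from the choice.

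Neighbouring genes on the chromosome, by the order of protein-coding genes in RefSeq (GRCh38.p14), were set beside the members, a comparison chosen after seeing the data. The neighbours described below include most of those with the largest differences. Others were not called over both cocultures. Beside CDKN1B, GPR19 was at 0.085 and APOLD1 at 0.043, and beside CCND2, PARP11 was at -0.070 and TIGAR at -0.016. MARCHF9 beside CDK4 was at 0.014, RAB44 beside CDKN1A at 0.20, and C19orf12 and URI1 beside CCNE1 at -0.069 and -0.28. CDK2 on chromosome 12 lies within 1 kb of PMEL, a pigment cell gene. PMEL rose by 1.35 ± 0.18 (limma adjusted p = 0.0469), about as much as CDK2, but the arrays of both genes were ordered differently. PMEL stood at 5.88 and 6.14 in monoculture, 6.48 and 7.03 with T cells, and 7.83 and 8.12 with monocytes, which set the cocultures apart, whereas CDK2 had means of 10.33 and 10.34. RAB5B, on the other side of CDK2, was at 0.36 ± 0.11 (adjusted p = 0.140). SRSF3, a splicing factor gene next to CDKN1A on chromosome 6, fell by 1.20 ± 0.088 on the log2 scale (limma adjusted p = 0.0338), opposite to CDKN1A. Beside CCND3, BYSL of ribosome assembly was at -0.80 ± 0.14 (adjusted p = 0.0595) and TAF8 at 0.022 ± 0.11 (adjusted p = 0.949). SAMD9, beside CDK6, was at -0.98 ± 0.20 (adjusted p = 0.0757). Next to RB1, whose own difference was negative, ITM2B rose by 0.93 ± 0.13 (limma adjusted p = 0.0484). CDK4, CCNE2 and RB1 overlap TSPAN31 (0.18), INTS8 (-0.33) and LPAR6 (0.15) in that table, by position and without regard to strand. Whether their signal holds that of the overlapping gene was not tested.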

How the data were processed

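RNA (40 ng) of DEV cells was amplified, labelled with biotin and hybridised to Affymetrix Gene 1.0 arrays, 1 per sample (6 arrays, 3 groups of 2, from the sample labels). The authors deposited 1 normalized log2 value per probe set and array. How probe signals were summarised and normalized was not given in the sources used here, and either step could shift small differences. Array medians lay between 5.64 and 5.73 with 0 missing values, and the number of arrays limits the precision.

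Values were used as deposited. One mean per group was fitted to all 32321 probe sets in limma (version 3.58.1, R 4.3.3; lmFit and eBayes, 3 residual and 3.08 prior degrees of freedom), with Benjamini-Hochberg adjustment over all probe sets of each of 4 comparisons and a threshold of 0.05. Errors of differences are standard errors of that fit, and intervals are at 95%. Genes were represented by the probe set with 1 symbol of highest mean. Of all probe sets, 1388 had several symbols and 11775 had none. The fit was tested on simulated data. The 10 genes and the lists were chosen with earlier results of these data known. Named are all 10 genes, each called gene of a list and the 3 with the smallest p, and the 3 nearest profiles of the 3 most variable genes. Neighbours were added later, and a further called neighbour is not reported here. Alternatives were quantile normalization, median centring, leaving out the dimmest 40% of probe sets, the replicate block, the mean of a gene's probe sets and leaving out each array.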

Additional observations from a re-analysis of the deposited data

How the results depend on the processing

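The comparisons rest on 2 arrays per group, and without either monoculture array limma called 0 probe sets over both cocultures. Of the 10 genes, limma called 0 in each comparison. Over both cocultures the number was 1 after quantile normalization (CDKN1B), 2 without the dimmest 40% of probe sets (CDKN1A and CDK2), 1 with the replicate block (CDK2), 2 without the first array of both cocultures, and 0 to 4 over leaving out each array. With T cells it was 0 to 1 over leaving out each array (CDK2) and 2 without both first arrays (CDK2 and CCND3). With monocytes it was 1 without the dimmest 40% (CDKN1A), 1 without both first arrays (CCND3), and 0 to 3 over leaving out each array (CDKN1A, CDK2 and CCND3 without either T cell array). All 10 genes have 1 probe set, so the mean of probe sets gave the same values.

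Called probe sets over both cocultures (232) were 564 after median centring, 756 without the dimmest 40%, 2545 without both first arrays and 0 to 2329 over leaving out each array. With T cells (0) they were 0 to 1391 and 1535 without both first arrays. With monocytes (187) they were 440, 572, 726 and 0 to 1167 in the same order, and between the cocultures (0) they were 0 to 1.

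Quantile normalization turned the sign of CDK4 over both cocultures (0.0029) and with monocytes (0.075) and of RB1 with monocytes (0.054). Between the cocultures, small differences changed sign when 1 array was left out: CDK2 ran from -0.38 to 0.41 (and was -0.31 without both first arrays), CDK4 from -0.036 to 0.066, CCND2 from -0.17 to 0.00026, CCNE1 from -0.21 to 0.29, CCNE2 from -0.045 to 0.41 and RB1 from -0.033 to 0.24. The cause was not tested. The numbers of the replicates are not known to pair the samples: the deviations of same-numbered arrays correlated at 0.027, -0.15 and 0.26 across probe sets between pairs of groups.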
